A study of Mus musculus with 18 samples.

Results

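The complement system was examined through 35 genes of its components, regulators and receptors, out of 54532 genes measured in mouse liver. The genes were taken by name from the classical pathway (10 genes), the lectin pathway (6), C3 and the alternative pathway (4), the terminal pathway (6), the regulators (7) and the anaphylatoxin receptors (2). Each was also assigned, from general knowledge of liver, to hepatocytes (24 genes), macrophages (7) or another or broad source (4). RNA-seq was performed on livers of male wild-type C57BL/6J mice, with 1 library per mouse, and all mice were fasted overnight before harvest. Without fenofibrate, 5 mice received a control diet (Ctrl) and 5 the 99% vitamin B2-deficient diet (B2D) for 4 wk from 4 wk of age. With fenofibrate (FF), a PPARα agonist given by daily gavage at 300 mg/kg in the last 2 wk and 2 h before harvest, 4 mice received the control diet (Ctrl+FF) and 4 the deficient diet (B2D+FF) for 9 wk. Fenofibrate, time on diet and the table of values therefore change together, so FF and non-FF levels are set side by side with no test.

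Complement is a set of plasma and membrane proteins that marks microbes and damaged cells, attracts leukocytes and perforates membranes. The classical pathway starts when C1q binds immune complexes, the lectin pathway when mannose-binding lectins, ficolins or collectins bind sugars, and the alternative pathway amplifies deposited C3. All of these cleave C3 and then C5, after which C6, C7, C8 and C9 assemble the membrane attack complex. Hepatocytes secrete most of the soluble components, whereas C1q and properdin come largely from macrophages, including the Kupffer cells of the liver.

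Levels are given as FPKM, a count of read pairs divided by gene length and by a library size. The size recovered from the values was not the number of reads on genes. It was 1.71e+07 for B2D 2 (15320729 reads), 2.03e+07 for B2D+FF 2 (18505088) and 2.05e+07 for B2D+FF 4 (21898502). The deposited values had therefore been rescaled between libraries. Between 15320729 and 21898502 reads were counted on genes per library, and replicates correlated with r of 0.979 to 0.994 on the log2 scale. With 1 mouse per library, p-values measure the spread between these mice. The share of reads on mitochondrially encoded genes was 5.22% to 6.59% in Ctrl, 5.82% to 9.41% in B2D, 8.02% to 9.27% in Ctrl+FF and 6.71% to 8.78% in B2D+FF, and its part in the results was not tested. The summed FPKM of 10 hepatocyte markers (albumin, transthyretin and others) lay between 33362 and 48051 without fenofibrate and between 19728 and 25343 with it. Most of this sum was Alb (albumin). Mice are numbered within each group.

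The terminal pathway had the lowest median log2 fold change of the pathway groups in both diet comparisons, and the upstream DNA of 5 genes is shown here so that neighbouring and functionally paired genes can be compared. C8a and C8b, 2 subunits of C8, lie 11130 bases apart on chromosome 4 of GRCm38 and are read toward each other, while the third subunit gene, C8g, is on chromosome 2. C9 and C6 are on chromosome 15 and C4bp, the fluid-phase inhibitor of the C4b protein, is on chromosome 1. Each sequence ends at the base before the gene's start in the deposited annotation and comes from RefSeq (GRCm38.p6). Capitals mark matches to motifs searched on both strands, namely GTTAAT (part of the HNF1 site), TGACCT (part of the nuclear receptor site), TTCNNNGAA (STAT5), TTCNNGGAA (STAT3), TTGCNNAA (C/EBP) and the interferon-stimulated response element.
C8a, chr4:104876399-104876648, minus strand: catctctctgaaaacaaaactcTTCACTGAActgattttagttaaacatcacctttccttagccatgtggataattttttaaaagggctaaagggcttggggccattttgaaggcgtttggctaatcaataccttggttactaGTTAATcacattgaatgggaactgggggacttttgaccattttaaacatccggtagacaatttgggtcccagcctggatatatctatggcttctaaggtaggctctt
C8b, chr4:104766067-104766316, plus strand: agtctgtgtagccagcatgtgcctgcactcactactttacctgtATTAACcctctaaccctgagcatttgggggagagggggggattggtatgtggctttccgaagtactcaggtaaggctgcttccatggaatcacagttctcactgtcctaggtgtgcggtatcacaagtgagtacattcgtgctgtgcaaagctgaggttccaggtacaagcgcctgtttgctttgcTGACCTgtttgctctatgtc
C8g, chr2:25501720-25501969, minus strand: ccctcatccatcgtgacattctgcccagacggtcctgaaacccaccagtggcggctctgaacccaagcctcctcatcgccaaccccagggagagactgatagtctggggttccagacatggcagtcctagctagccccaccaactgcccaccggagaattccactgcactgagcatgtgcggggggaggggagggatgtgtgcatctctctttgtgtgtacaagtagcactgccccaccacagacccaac
C9, chr15:6445096-6445326, plus strand: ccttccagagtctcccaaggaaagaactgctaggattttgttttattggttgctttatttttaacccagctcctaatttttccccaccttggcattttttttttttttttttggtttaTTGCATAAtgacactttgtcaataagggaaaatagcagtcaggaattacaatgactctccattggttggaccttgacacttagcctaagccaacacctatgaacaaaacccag
C4bp, chr1:130661633-130661868, minus strand: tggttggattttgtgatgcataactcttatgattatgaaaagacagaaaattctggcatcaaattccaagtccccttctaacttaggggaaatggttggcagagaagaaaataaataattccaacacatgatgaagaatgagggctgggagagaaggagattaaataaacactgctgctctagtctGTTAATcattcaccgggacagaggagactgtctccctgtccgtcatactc
The GTTAAT pattern stands in C8a (capitals beginning 107 bases before the RefSeq start), C8b and C4bp, a TTCNNNGAA match stands in C8a, a TGACCT match in C8b and a TTGCNNAA match in C9. None of these 6 patterns is in the C8g window. Over the 28 promoters found for 26 of the 35 genes, each of 250 bases, 8 (28.6%) held GTTAAT, against 6.43% of 32841 promoters of the table. The 8 were those of C1ra, C1s2, C4bp, C8a, C8b, Cfp, Hc and Vtn, of which only C4bp, C8a and C8b passed in a diet comparison below. Of 8 promoters of genes that passed, 3 held GTTAAT. The promoter of C6, a terminal gene that passed, held TGACCT and no GTTAAT. The corresponding shares were 14.3% against 7.02% for TTCNNNGAA, 14.3% against 9.57% for TTGCNNAA and 17.9% against 14% for TGACCT, and 7.14% for TTCNNGGAA and for the interferon-stimulated response element against 4.06% and 2.98%. The TTCNNNGAA and TTCNNGGAA patterns can cover the same bases, as they did in Masp2 and C1rb. A match is a description of letters and was not tested as a site.

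B2D was compared with Ctrl by limma on log2(FPKM + 1), a scale on which folds of low genes are understated. Of the 35 genes, 32 had a mean FPKM of at least 0.5 and were tested, and 28 had a log2 fold change below 0, as did 50.2% of all tested genes. Adjusted over all 11574 genes tested, 6 complement genes were lower in B2D and 0 higher, where 1.94% of all tested genes were lower and 0.769% higher (2.7% in either direction). The median log2 fold change was -0.27 over the 32 genes and -0.0013 over all genes. At an unadjusted p under 0.05, a level that 18.4% of all tested genes passed, 15 were lower and 1, C3, was higher, and limma voom on the reads behind the FPKM gave 7 lower and 0 higher. The 6 were C6, C8a and C9 of the terminal pathway, the regulator C4bp, the lectin Mbl1 and the C1q chain gene C1qa. In 9 of the 32 the highest B2D value lay under the lowest Ctrl value, which held for 2.89% of all tested genes, and in 0 the lowest B2D value lay above the highest Ctrl value (2.08%, and 4.98% for separate groups in either direction). Of the 6 calls, 1 (C4bp, limma adjusted p = 0.0444) held with no filter on low values, where the others had adjusted p-values of 0.0535 to 0.122, and 1 (C4bp) held without Ctrl 2 or without Ctrl 4. The 9 without overlap were C1qa, C1qb, Mbl1, C6, C8a, C8g, C9, C4bp and Serping1.

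In the comparison of B2D+FF with Ctrl+FF, 31 of the 35 genes were tested, 27 had a log2 fold change below 0 (47.2% of all tested genes), and the median was -0.25 (0.013 over all genes). Adjusted over 11878 genes, 9 complement genes were lower and 0 higher, against 2.21% of all tested genes lower and 2.24% higher (4.45% in either direction, of which 49.7% were lower, or 62.1% after upper-quartile rescaling, under which the same number of complement genes, 9, were lower). At an unadjusted p under 0.05, which 21.2% of all tested genes passed, the counts were 14 and 0, and by limma voom 10 and 0. The 9 genes were C6, C8a, C8b and C9, C4bp, Mbl1 and Mbl2, C4a and Cfd. With no filter on low values C4a, C6, C8a, C9 and C4bp passed, and the other 4 had adjusted p-values of 0.0516 to 0.103. Without Ctrl+FF 1, 5 passed. These were also the 9 complement genes without overlap between diets, which held for 6.44% of all tested genes in this direction, 7.82% in the other and 14.3% in either. C6, C8a, C9, C4bp and Mbl1 passed in both comparisons, so 10 genes passed in either. On GRCm38 these 10 genes span chr4:104815679-104876398 (C8a), chr4:104766317-104804548 (C8b), chr15:6445327-6498751 (C9), chr15:4727175-4814967 (C6), chr1:130634773-130661632 (C4bp), chr14:41151458-41159601 (Mbl1), chr19:30232928-30239685 (Mbl2), chr17:34809092-34823464 (C4a), chr10:79890853-79892655 (Cfd) and chr4:136895917-136898803 (C1qa).

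**Figure D1:**
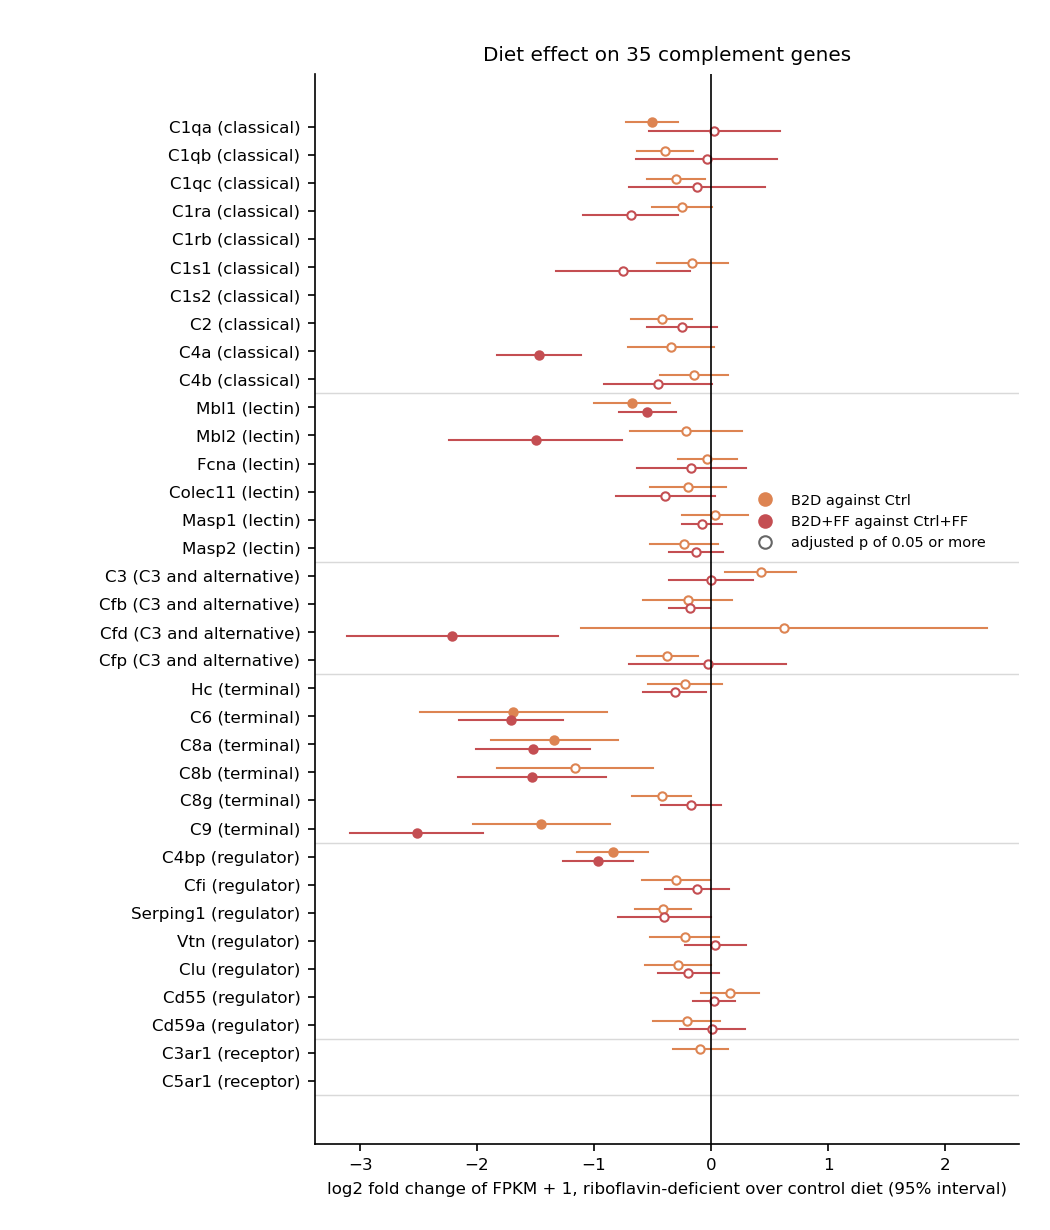
Log2 fold change of FPKM + 1 (x axis) of the deficient over the control diet for each tested complement gene (rows, by pathway role), without fenofibrate (orange, n = 5 against 5 mice) and with it (red, n = 4 against 4). Lines are 95% intervals of limma and filled points passed an adjusted p of 0.05; the filled points lie between -2.52 (C9 with fenofibrate) and -0.50 (C1qa without), and rows with no point were not tested.

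The terminal pathway assembles the membrane attack complex from C5, encoded by Hc in the mouse, and the C6 to C9 proteins. All 6 terminal genes had fold changes below 0 in both comparisons, with medians of -1.25 and -1.53, and 3 and 4 of them passed. Of all tested genes, 50.2% and 47.2% were below 0, and 2.7% and 4.45% passed in either direction. Their summed FPKM was 649.6 to 846 in Ctrl and 326 to 588 in B2D, and 291 to 364 in Ctrl+FF and 204 to 245 in B2D+FF, with no overlap between diets in either table. The sum is a description and was not tested.

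C9, whose protein polymerizes into the pore, was at 101, 151, 115, 133 and 139 FPKM in the 5 Ctrl mice and at 39.4, 36.7, 92.2, 26.5 and 55.7 in the 5 B2D mice. With fenofibrate it was at 34.0, 20.8, 26.3 and 24 in Ctrl+FF and at 1.93, 4.73, 5.88 and 3.21 in B2D+FF. The diets did not overlap in either table, and B2D 3 was the nearest to the control mice. The log2 fold changes were -1.45 (SE 0.271, limma adjusted p = 0.0180) and -2.52 (SE 0.253, limma adjusted p = 0.00215), the latter the lowest of any complement gene tested in these comparisons. Its mean FPKM was 128 ± 19.9 (SD, n = 5) in Ctrl against 50.1 ± 25.8 (SD, n = 5) in B2D, and 26.3 ± 5.60 (SD, n = 4) in Ctrl+FF against 3.94 ± 1.73 (SD, n = 4) in B2D+FF.

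C8a encodes the alpha subunit of C8, which inserts into the target membrane. Its FPKM was 104, 119.6, 101, 129.9 and 108 in Ctrl and 43.3, 32.0, 77.8, 25.6 and 57.5 in B2D. It was 30.6, 19.7, 31.8 and 24.3 in Ctrl+FF and 6.76, 11.1, 11.1 and 6.03 in B2D+FF. Every deficient mouse was below every control mouse of its table, and the log2 fold changes were -1.34 (SE 0.248, limma adjusted p = 0.0174) and -1.52 (SE 0.217, limma adjusted p = 0.00746). On the opposite strand C8a shares 1809 bases, introns included, with Gm17662, which averaged 30.55 FPKM without fenofibrate and 7.405 with it. The part of Gm17662 reads in the C8a values was not tested.

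C8b, the beta subunit gene, was at 102, 167, 116, 159 and 101 FPKM in Ctrl and at 63.5, 42.5, 106, 27.2 and 67.6 in B2D, where B2D 3 lay above Ctrl 1 and Ctrl 5. The log2 fold change was -1.16 (SE 0.305) and did not pass (limma adjusted p = 0.0690), although it did without B2D 3 (0.0243) and by voom (0.0335). With fenofibrate the values were 26.4, 15.1, 40.8 and 16.2 in Ctrl+FF and 8.47, 7.42, 7.69 and 5.54 in B2D+FF. These groups were separate, and the log2 fold change of -1.53 (SE 0.281) passed (limma adjusted p = 0.0187). The call was lost without Ctrl+FF 1 (0.0677) or B2D+FF 4 (0.0545).

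C8g encodes the gamma subunit, a lipocalin linked to the alpha chain, and was the most abundant terminal gene. It was at 190.2, 243, 205, 248 and 175 FPKM in Ctrl and at 152, 158, 155, 166 and 154 in B2D, so all B2D mice were below all Ctrl mice. The log2 fold change of -0.42 (SE 0.116) did not pass (limma adjusted p = 0.0798). With fenofibrate it was at 163, 176, 196 and 159 in Ctrl+FF and at 143, 139, 156 and 179 in B2D+FF, and the diets overlapped, with a log2 change of -0.17 (limma adjusted p = 0.423). Its coefficient of variation among B2D mice was 3.55%, beside 44.3% for C8a, 48.8% for C8b, 51.5% for C9 and 69.2% for C6.

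The log2 ratio of C8a to C8g FPKM, taken within each mouse, ran from -1.03 to -0.69 in Ctrl and from -2.70 to -1.0 in B2D, ranges that overlap at B2D 3. With fenofibrate it ran from -3.16 to -2.42 in Ctrl+FF and from -4.89 to -3.65 in B2D+FF, with no overlap. For C8b to C8g the ranges were -0.91 to -0.54 and -2.61 to -0.54 without fenofibrate, and -3.54 to -2.26 and -5.02 to -4.07 with it. The C8a to C8b ratio overlapped between diets in both tables, with means of -0.17 and -0.35, and of 0.20 and 0.22. These pairs were formed after the values had been seen, so the ratios carry no test.

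**Figure D2:**
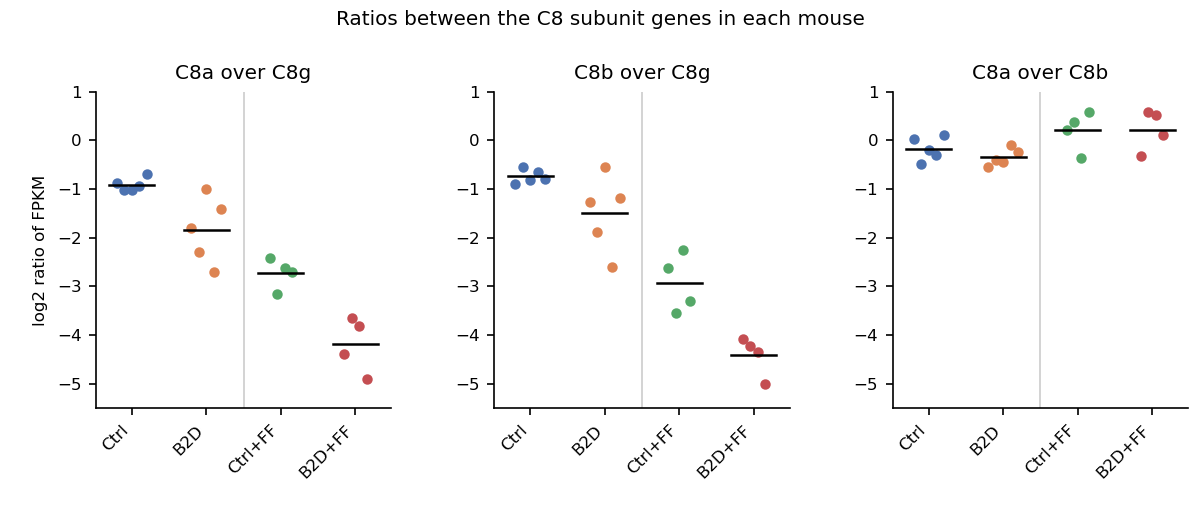
Log2 ratio of FPKM (y axis) between the C8 subunit genes in each mouse (points) of the 4 groups (x axis), with black bars for group means and a grey line between the 2 tables. C8a over C8g and C8b over C8g reach at most -3.65 and -4.07 in B2D+FF, below every Ctrl+FF mouse, whereas the diets overlap for C8a over C8b in both tables.

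C6, the first protein to join C5 in the complex, was at 51.7, 64.1, 45.1, 50.2 and 59.9 FPKM in Ctrl and at 24.1, 10.6, 39.9, 6.27 and 15.2 in B2D. It was at 14.7, 9.14, 13.8 and 10.4 in Ctrl+FF and at 4.06, 2.34, 3.61 and 1.99 in B2D+FF. The diets were separate in both tables, with log2 fold changes of -1.69 (SE 0.368, limma adjusted p = 0.0349) and -1.71 (SE 0.199, limma adjusted p = 0.00315). Hc differed less, with 104 ± 8.2 FPKM (SD, n = 5) in Ctrl, 90.8 ± 20.4 (SD, n = 5) in B2D, 57.4 ± 5.62 (SD, n = 4) in Ctrl+FF and 46.2 ± 6.57 (SD, n = 4) in B2D+FF. Neither of its fold changes, -0.22 and -0.31, passed. Among the B2D mice, C6, C8a, C8b and C9 were all lowest in B2D 4, next lowest in B2D 2 and highest in B2D 3. These mice were also at the extremes over the 22 tested hepatocyte complement genes, the terminal genes among them. There B2D 3 was highest in 14, and B2D 2 and B2D 4 were lowest in 9 and 8. These counts hold the terminal genes too, so they do not show whether the order was particular to that pathway. Outside it C3 and C4b had the same order, while others, such as Cfi, did not. The terminal gene C8g did not have it either and was highest in B2D 4.

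Without fenofibrate, C8a lost its call without Ctrl 2 (limma adjusted p = 0.0581) or Ctrl 4 (0.0573), and C9 without Ctrl 2 (0.0633) or Ctrl 4 (0.0567). C6 lost it without Ctrl 1 (0.0746), Ctrl 2 (0.0965), Ctrl 4 (0.0833), Ctrl 5 (0.0635), B2D 2 (0.0752), B2D 4 (0.0533) or B2D 5 (0.0606). With fenofibrate, C6, C8a and C9 passed whichever single library was omitted (8 of 8 fits each).

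**Figure D3:**
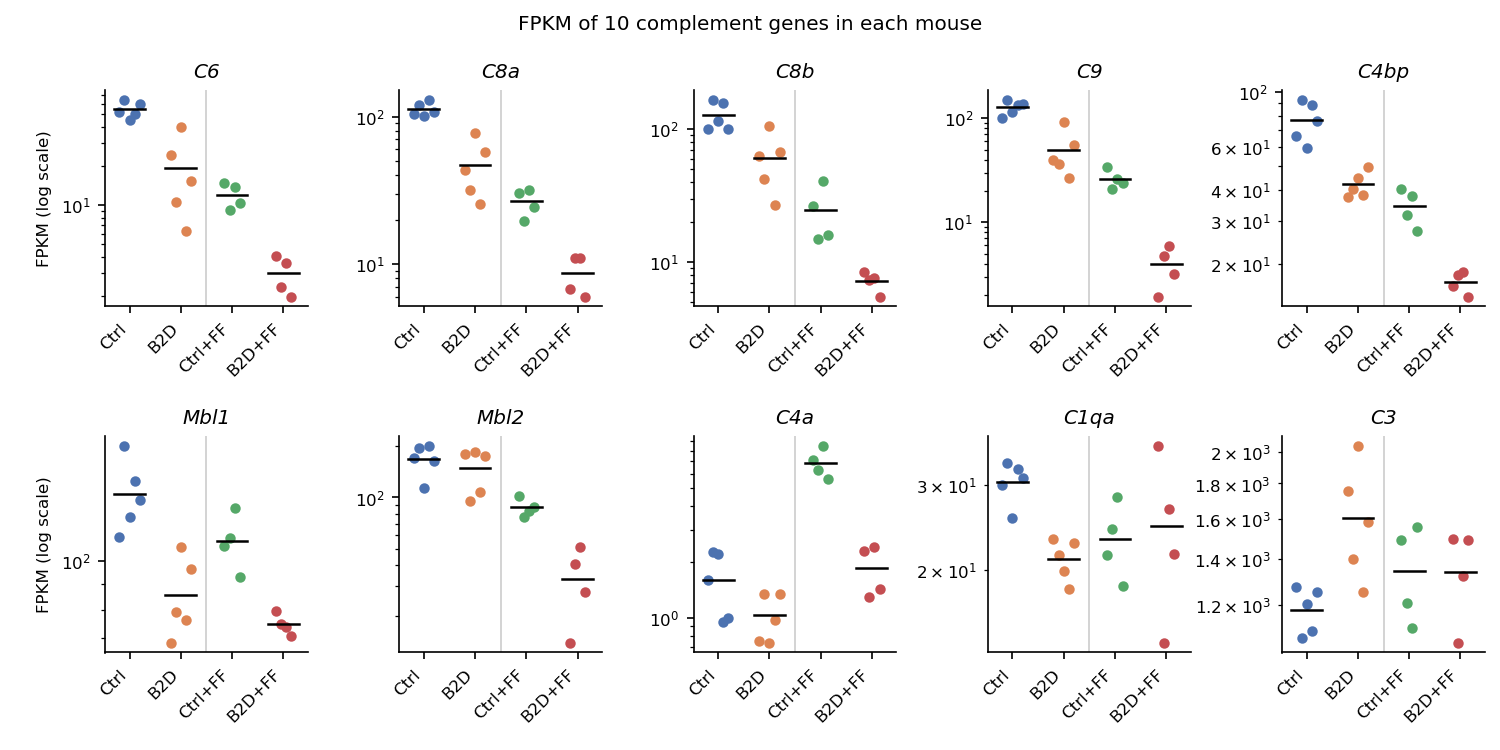
FPKM (y axis, log scale) of 10 complement genes in each mouse (points) of the 4 groups (x axis), with black bars for group means and a grey line between the 2 tables. C6, C8a, C9, C4bp and Mbl1 have lower deficient mice with no overlap in both tables, while C3 overlaps between diets in both.

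The regulators restrain complement on host surfaces and in plasma. Of 7 regulator genes, 6 and 4 had fold changes below 0, beside 50.2% and 47.2% of all tested genes. The second count is near that share. Only C4bp passed in each comparison, where 2.7% and 4.45% of all tested genes did. C4bp was at 66.5, 93.1, 59.6, 89.0 and 76.5 FPKM in Ctrl and at 37.5, 40.4, 45, 38.3 and 49.8 in B2D, and at 40.3, 31.8, 37.9 and 27.4 in Ctrl+FF and 16.3, 18.1, 18.6 and 14.8 in B2D+FF. No deficient mouse reached a control mouse of its table. The log2 fold changes were -0.84 (SE 0.139, limma adjusted p = 0.0109) and -0.97 (SE 0.132, limma adjusted p = 0.00604), and C4bp passed whichever single library was omitted (10 of 10 and 8 of 8 fits).

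Serping1, which encodes the C1 esterase inhibitor, was at 313, 316, 286, 328 and 304 FPKM in Ctrl and at 235, 195, 252, 216 and 272 in B2D. The 2 diets were separate, yet the log2 fold change of -0.41 (SE 0.111) did not pass (limma adjusted p = 0.0775). With fenofibrate Serping1 was at 216, 167, 187 and 186 in Ctrl+FF and at 143, 99.4, 174 and 168 in B2D+FF, which overlap, with a log2 change of -0.40 (limma adjusted p = 0.231).

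Vtn, which encodes vitronectin, an inhibitor of membrane attack complex insertion, was the most abundant regulator. It was at 970.2, 839, 788, 880.5 and 827 FPKM in Ctrl, 983, 649, 756, 616 and 721 in B2D, 506, 408, 443 and 473 in Ctrl+FF, and 532, 412, 490.0 and 447 in B2D+FF. The diets overlapped in both tables, with log2 fold changes of -0.22 and 0.037. Clu (clusterin) and Cfi (the C3b-cleaving protease factor I) had log2 fold changes of -0.28 and -0.30 without fenofibrate and -0.19 and -0.12 with it, and none of these passed. Clu averaged 369 ± 20.9, 307 ± 55.3, 254 ± 26.7 and 223 ± 23.9 FPKM (SD) in Ctrl, B2D, Ctrl+FF and B2D+FF, and Cfi 219.9 ± 28.9, 179 ± 26.0, 125 ± 16.8 and 114 ± 11.1. The membrane regulators were Cd55, which speeds the decay of convertases, and Cd59a, which blocks C9 insertion. Cd55 had log2 fold changes of 0.16 and 0.025, and Cd59a of -0.21 and 0.011, and neither passed. Group means lay between 1.98 and 2.84 FPKM for Cd55 and between 28.7 and 41.9 for Cd59a.

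In the lectin pathway, the mannose-binding lectin gene Mbl1 passed in both comparisons and Mbl2 only in the one with fenofibrate. The other members did not pass. Mbl1 was at 112, 171, 123, 145 and 133 FPKM in Ctrl and at 68.6, 79.1, 107, 76.4 and 96.7 in B2D, and at 107, 111, 128 and 92.8 in Ctrl+FF and 79.5, 74.7, 73.7 and 70.8 in B2D+FF. The diets were separate in both tables. The log2 fold changes were -0.67 (SE 0.150, limma adjusted p = 0.0368) and -0.54 (SE 0.109, limma adjusted p = 0.0261). The first call was lost without Ctrl 2 (0.0983), Ctrl 4 (0.106), Ctrl 5 (0.0622), B2D 1 (0.0634), B2D 2 (0.0766) or B2D 4 (0.0878), and the second without Ctrl+FF 1 (0.0807), Ctrl+FF 2 (0.0877), Ctrl+FF 3 (0.0557) or B2D+FF 4 (0.0737).

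Mbl2, the second mannose-binding lectin gene and the lectin member with the highest mean in Ctrl, was at 170.1, 196, 114, 201 and 164 FPKM in Ctrl and at 181, 95.4, 184, 107 and 175 in B2D. These groups overlapped, with a log2 fold change of -0.21 (SE 0.220, limma adjusted p = 0.642). With fenofibrate it was at 102, 76.3, 83.2 and 88.4 in Ctrl+FF and at 14.0, 40.4, 51.3 and 27.7 in B2D+FF, with no overlap and a log2 fold change of -1.50 (SE 0.330, limma adjusted p = 0.0375). That call was lost without Ctrl+FF 1 (0.110), Ctrl+FF 2 (0.0862), Ctrl+FF 3 (0.0822), Ctrl+FF 4 (0.0737) or B2D+FF 4 (0.0895). The difference between the diet effects, -1.29 on the log2 scale (95% interval -2.15 to -0.42), did not pass (limma adjusted p = 0.207).

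Masp1 and Masp2, the proteases that lectins activate, had log2 fold changes from -0.23 to 0.035 over both comparisons. Fcna (ficolin A) and Colec11 (collectin 11) had values of -0.032 and -0.20 without fenofibrate and -0.17 and -0.39 with it. Mean FPKM in Ctrl, B2D, Ctrl+FF and B2D+FF was 12.7 ± 1.36, 13.2 ± 2.57, 9.66 ± 0.381 and 9.11 ± 0.645 (SD) for Masp1 and 50.5 ± 7.24, 42.8 ± 6.41, 49.4 ± 2.57 and 45.3 ± 5.61 for Masp2. In the same order it was 18.3 ± 1.53, 18 ± 2.69, 16.0 ± 3.4 and 14.4 ± 4.60 for Fcna and 18.2 ± 2.71, 15.9 ± 3.64, 12.0 ± 1.5 and 9.13 ± 2.59 for Colec11. None of these 4 genes passed. On the opposite strand, Masp1 shares 525 bases with Rtp4 and 606 with Gm45338, Masp2 3118 with Tardbp, C8g 970 with Fbxw5, C8a 1809 with Gm17662, C2 17385 with Zbtb12 and Hc 19474 with Gm13449, introns included. Whether the counting used strand is not given in the sources used here, so reads from those stretches cannot be assigned with certainty.

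The classical pathway uses C1q to bind, C1r and C1s to cleave, and C4 and C2 to form the C3 convertase. Of its 10 genes, 8 were tested, and all 8 were below 0 in B2D and 7 in B2D+FF, with 1 past the threshold each time. Over all tested genes, 50.2% and 47.2% were below 0, and 2.7% and 4.45% passed in either direction. C4b, the classical member with the highest mean, was at 210.1, 151, 172, 177 and 168 FPKM in Ctrl, 164, 158, 187, 121 and 167 in B2D, 183, 165, 129 and 187 in Ctrl+FF, and 138, 78.6, 148 and 128 in B2D+FF. Its diets overlapped in both tables, and its log2 fold changes of -0.15 and -0.45 did not pass (limma adjusted p = 0.590 and 0.245).

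C4a, a relative of C4b that the deposited annotation types as a processed transcript, was at 1.60, 2.27, 2.21, 0.950 and 1.00 FPKM in Ctrl and at 0.753, 1.35, 0.734, 0.971 and 1.35 in B2D, which overlap. With fenofibrate it was at 7.10, 6.30, 8.48 and 5.61 in Ctrl+FF and at 2.30, 1.30, 2.42 and 1.44 in B2D+FF, which do not. The log2 fold changes were -0.34 (SE 0.169, limma adjusted p = 0.310) and -1.47 (SE 0.160, limma adjusted p = 0.00252), and the second passed whichever single library was omitted (8 of 8 fits). C4a and C4b share 8.27% and 8.26% of the 150-base windows of their longest transcripts, so reads from those stretches could have been divided between them. The difference between the diet effects on C4a was -1.13 (95% interval -1.65 to -0.61, limma adjusted p = 0.0612), and it passed without Ctrl 3 (0.0438) or B2D 1 (0.0483).

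C1ra and C1s1, the hepatocyte genes of the C1 proteases, had log2 fold changes of -0.25 and -0.16 without fenofibrate and -0.69 and -0.75 with it. Neither passed, with limma adjusted p-values of 0.0644 and 0.130 in the FF comparison, where C1ra passed without B2D+FF 3 (0.0122). Their means in Ctrl, B2D, Ctrl+FF and B2D+FF were 72.1 ± 9.01, 60.5 ± 6.84, 35.2 ± 3.92 and 22.0 ± 6.53 FPKM (SD) for C1ra and 85.7 ± 13, 76.6 ± 11.1, 41.7 ± 5.83 and 25.6 ± 9.57 for C1s1. C1ra shares 26.3% of its windows with C1rb, and C1s1 2.86% with C1s2. C1rb was at 0.118 FPKM or less and C1s2 at 0.0458 or less in every library, or 5 and 2 reads at most, and neither was tested. C2, which forms the convertase with C4, was 6.67 ± 0.962 FPKM (SD, n = 5) in Ctrl, 4.74 ± 0.786 (SD, n = 5) in B2D, 4.30 ± 0.666 (SD, n = 4) in Ctrl+FF and 3.48 ± 0.701 (SD, n = 4) in B2D+FF. Neither of its log2 fold changes, -0.42 and -0.25, passed, and 48.3% of its windows are shared with the readthrough transcript Gm20547.

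C3 is the protein on which the pathways converge and was the most abundant complement gene. It was at 1275, 1075, 1207, 1101 and 1256 FPKM in Ctrl and at 1755, 1399, 2039, 1253 and 1584 in B2D. All B2D mice but B2D 4 were above every Ctrl mouse. The log2 fold change was 0.42 (SE 0.139, 95% interval 0.12 to 0.73) and did not pass (limma adjusted p = 0.137, unadjusted p = 0.0100). With fenofibrate it was at 1491, 1211, 1114 and 1557 in Ctrl+FF and at 1495, 1059.6, 1322 and 1493 in B2D+FF, with overlap and a log2 fold change of -0.00038 (95% interval -0.36 to 0.36). The share of C3 in the summed FPKM of the 35 genes was 22.8% to 27.8% in Ctrl and 35.6% to 40.2% in B2D, which do not overlap, and 35.1% to 44.0% in Ctrl+FF and 42.3% to 46.7% in B2D+FF, which do.

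Cfb (factor B) supplies the protease of the alternative convertase and had log2 fold changes of -0.20 and -0.18, which did not pass, with group means between 1.53 and 2.32 FPKM. It shares 80.7% of its windows with Gm20547. Cfd encodes factor D, or adipsin, which cleaves factor B and is made mainly by adipocytes. It was at 0.732, 0.0624, 0.220, 0.546 and 0.259 FPKM in Ctrl and at 0, 28.5, 0, 0.279 and 0 in B2D. B2D 2 stood apart with 449 reads, and the group passed the filter on low values through that library. The log2 fold change of 0.62 (SE 0.795, limma adjusted p = 0.718) therefore rests on it. With fenofibrate Cfd was at 19.6, 17.2, 13.1 and 6.21 in Ctrl+FF and at 2.10, 0.587, 2.15 and 4.34 in B2D+FF. The diets were separate, with a log2 fold change of -2.21 (SE 0.40, limma adjusted p = 0.0182), and the call was lost without Ctrl+FF 1 (0.0632), Ctrl+FF 2 (0.0651) or Ctrl+FF 3 (0.0532).

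Adipocyte markers were read beside Cfd. Adipoq (adiponectin) was at 6.19 FPKM in B2D 2 and at 0.413 or less in every other non-FF library, and Plin1, Retn and Lep were also highest in B2D 2 of those libraries. With fenofibrate Adipoq was at 2.47, 0.0880, 0.0417 and 0 in Ctrl+FF and at 0.128, 0, 0 and 0.106 in B2D+FF. In the 3 Ctrl+FF mice whose Adipoq was at 0.0880 or less, Cfd was at 17.2, 13.1 and 6.21 FPKM. Fabp4 was at 30.7, 41.2 and 33.8 FPKM in these mice and at 1.52 to 2.17 in Ctrl. The summed FPKM of the 5 adipocyte markers was 1.61 to 2.20 in Ctrl, 1.53 to 26.9 in B2D, 30.9 to 41.3 in Ctrl+FF and 32.8 to 142 in B2D+FF, and most of it was Fabp4, a fatty acid-binding protein gene. In Ctrl, 2 of the 5 markers were at 0 in every library. The part of adipose tissue in the Cfd values was not tested.

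**Figure D4:**
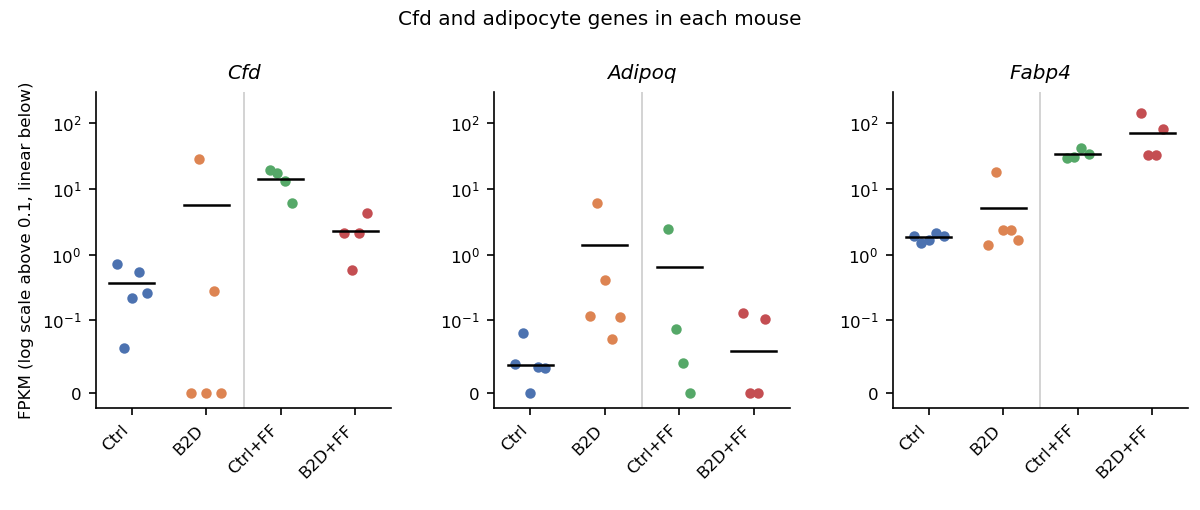
FPKM (y axis, log scale above 0.1 and linear below) of Cfd and of the adipocyte genes Adipoq and Fabp4 in each mouse (points) of the 4 groups (x axis), with black bars for group means and a grey line between the 2 tables. B2D 2 is the highest non-FF library for all 3 genes, at 28.5, 6.19 and 18.3 FPKM, and the 4 Ctrl+FF mice are above the 4 B2D+FF mice for Cfd.

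By source, 5 of 22 tested hepatocyte genes passed without fenofibrate and 8 of 22 with it, and 1 of 6 and 0 of 5 tested macrophage genes did. Of all tested genes, 2.7% and 4.45% passed in either direction. For those 5 macrophage genes 0 also passed at an unadjusted p under 0.05 and by limma voom. At that unadjusted level 21.2% of all tested genes passed, and 5 genes are too few to set against that share. The hepatocyte medians were -0.29 and -0.43 and the macrophage medians -0.34 and -0.037. Whether the 2 sources differed was not tested. In bulk liver, fewer cells of a type and less RNA per cell cannot be told apart.

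The 3 chains of C1q are encoded by neighbouring genes on chromosome 4. C1qa was at 29.9, 33.2, 25.5, 32.3 and 30.9 FPKM in Ctrl and at 23.1, 21.5, 19.9, 18.3 and 22.8 in B2D, with no overlap. The log2 fold change was -0.50 (SE 0.104, limma adjusted p = 0.0275). The call was lost without Ctrl 1 (0.0632), Ctrl 2 (0.0820), Ctrl 4 (0.0844), B2D 2 (0.0513), B2D 3 (0.0517) or B2D 4 (0.0678). With fenofibrate C1qa was at 21.4, 24.3, 28.3 and 18.6 in Ctrl+FF and at 36.0, 14.2, 26.8 and 21.6 in B2D+FF, so the highest and lowest mice of that table were both B2D+FF. Its log2 fold change there was 0.030 (SE 0.248, 95% interval -0.53 to 0.59).

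C1qb was at 28.5, 25.1, 23.6, 23.9 and 24.6 FPKM in Ctrl and at 19.1, 22.9, 16.4, 16.3 and 20.2 in B2D, again with no overlap, but its log2 fold change of -0.40 (SE 0.110) did not pass (limma adjusted p = 0.0846). It was at 18.3, 23.7, 30.3 and 18.4 in Ctrl+FF and at 37.2, 14.2, 21.2 and 19.3 in B2D+FF, which overlap. C1qc overlapped in both tables, with log2 fold changes of -0.30 and -0.12 and group means between 10.1 and 13 FPKM. The C1qa to C1qb and C1qa to C1qc log2 ratios overlapped between diets in both tables. Cfp, which encodes properdin, the stabilizer of the alternative convertase, had log2 fold changes of -0.37 (limma adjusted p = 0.124) and -0.029, with group means between 7.98 and 10.6 FPKM. Among B2D+FF mice, C1qa, C1qb, C1qc and Cfp were all highest in B2D+FF 1 and lowest in B2D+FF 2. B2D+FF 2 was also lowest in 12 of the 22 tested hepatocyte complement genes.

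**Figure D5:**
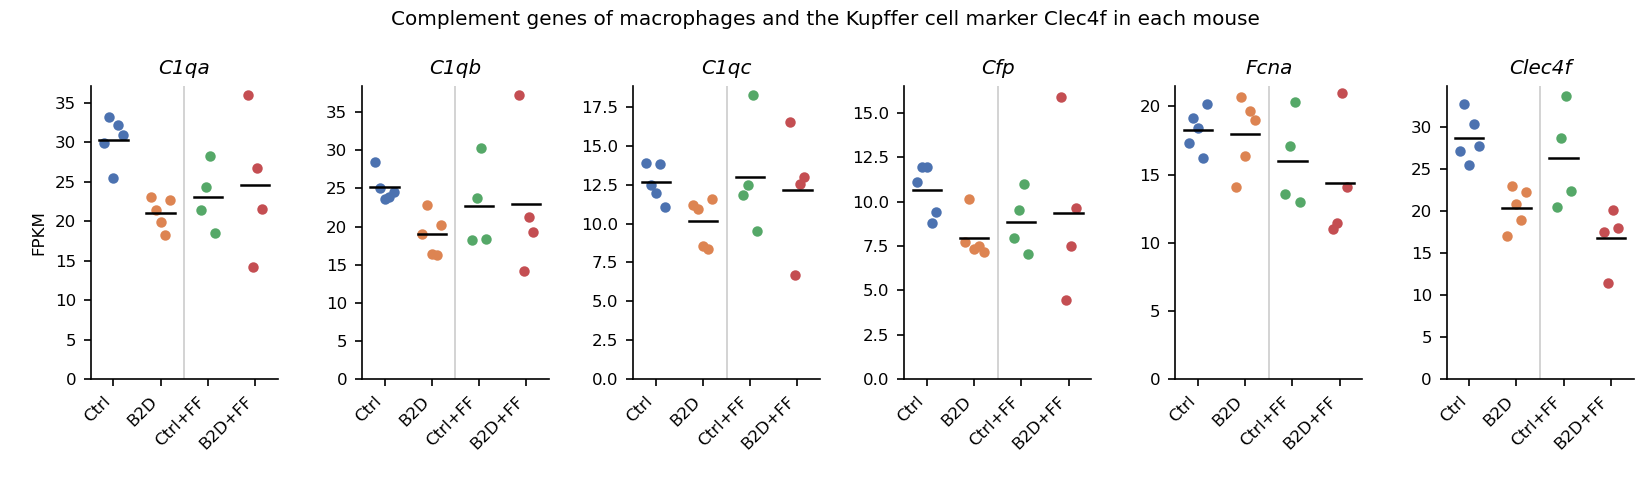
FPKM (y axes from 0) of 5 macrophage complement genes and the Kupffer cell marker Clec4f in each mouse (points) of the 4 groups (x axis), with black bars for group means and a grey line between the 2 tables. C1qa, C1qb and Clec4f are lower in all B2D than in all Ctrl mice, and B2D+FF spans 14.2 to 36.0 FPKM for C1qa.

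Of 11 Kupffer cell and macrophage markers, all detected, 10 had log2 fold changes below 0 in B2D and 9 in B2D+FF, with medians of -0.16 and -0.30. Over all tested genes, 50.2% and 47.2% were below 0. Clec4f, a lectin of Kupffer cells, was lower in B2D, at 20.4 ± 2.47 FPKM (SD, n = 5) against 28.7 ± 2.83 (SD, n = 5) in Ctrl, with a log2 fold change of -0.47 (SE 0.109, limma adjusted p = 0.0412). It passed without Ctrl 3 and lost its call in the other 9 fits that left out a library, with adjusted p-values up to 0.118 without Ctrl 4. With fenofibrate 0 of the 11 passed by limma and 3 at an unadjusted p under 0.05, where 4.45% and 21.2% of all tested genes did. Clec4f had a log2 change of -0.62 there (limma adjusted p = 0.108). Its diets did not overlap, with Ctrl+FF at 20.5 to 33.7 FPKM and B2D+FF at 11.5 to 20.2. Marco, a scavenger receptor of macrophages, was the 1 marker above 0 in B2D, at 4.87 ± 2.53 FPKM (SD, n = 5) against 2.12 ± 1.49 (SD, n = 5) in Ctrl. Its log2 fold changes of 0.95 and, with fenofibrate, 0.84 did not pass (limma adjusted p = 0.199 and 0.546). The summed FPKM of the 11 markers was 115 to 145 in Ctrl and 89.6 to 135 in B2D, and 100.5 to 181 in Ctrl+FF and 68.4 to 165 in B2D+FF. The part of macrophage number in the C1q values was not tested.

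The anaphylatoxin receptors were near the limit of detection. C3ar1, the receptor of C3a, was at 0.431, 0.454, 0.495, 0.597 and 0.844 FPKM in Ctrl, 0.391, 0.490, 0.688, 0.287 and 0.489 in B2D, 0.269, 0.423, 0.735 and 0.493 in Ctrl+FF, and 0.368, 0.308, 0.292 and 0.249 in B2D+FF, on 19 to 76 reads. It was tested without fenofibrate, where the diets overlapped and the log2 fold change was -0.090 (limma adjusted p = 0.696). C5ar1, the receptor of C5a, was between 0.138 and 0.697 FPKM on 6 to 33 reads, and was not tested.

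The diet effect with fenofibrate minus that without it was tested as 1 contrast over the 18 libraries. Of 31 complement genes tested, 0 passed by limma and 0 by limma voom, where 0.228% of all 11862 genes passed (0.101% lower and 0.126% higher). A difference below 0 was found for 17 of the 31 and for 47.6% of all genes. At an unadjusted p under 0.05 (11.9% of all genes) there were 4, C4a, Mbl2, Cfd and C9, each with a more negative difference with fenofibrate. For C9 the difference was -1.07 (95% interval -1.92 to -0.21, limma adjusted p = 0.299) and for Cfd it was -2.83 (95% interval -5.04 to -0.63, limma adjusted p = 0.292). The size of the Cfd difference depends on B2D 2. Without that library it was -1.87 and still did not pass (limma adjusted p = 0.0986, the lowest of the fits that left out 1 library). C6 and C8a differed by -0.019 (95% interval -1.04 to 1.0) and -0.19 (95% interval -0.95 to 0.58), intervals that allow differences of about 1 on the log2 scale. For C1qa the difference was 0.53 (95% interval -0.015 to 1.08, limma adjusted p = 0.430).

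Set side by side without a test, mean FPKM was highest in Ctrl and lowest in B2D+FF for 20 of the 35 genes, among them C6, C8a, C8b, C8g and C9. The share of all genes with this order was not computed, so whether it is particular to complement is not known. The order also crosses the 2 tables. Between them the summed FPKM of the 10 hepatocyte markers went from 33362 to 48051 without fenofibrate to 19728 to 25343 with it. Most of that sum was Alb, and not every marker followed it. In Ctrl, B2D, Ctrl+FF and B2D+FF, mean FPKM was 24776.5, 25072.9, 15529.5 and 12138.5 for Alb. In the same order it was 140, 198, 123 and 156 for Hnf4a. C8b, for example, was at 129 ± 31.8 (SD, n = 5), 61.4 ± 30 (SD, n = 5), 24.6 ± 11.9 (SD, n = 4) and 7.28 ± 1.24 (SD, n = 4) FPKM in Ctrl, B2D, Ctrl+FF and B2D+FF. C4a had another order, with means of 1.61 ± 0.634 (SD, n = 5), 1.03 ± 0.305 (SD, n = 5), 6.87 ± 1.23 (SD, n = 4) and 1.86 ± 0.577 (SD, n = 4). C8g, at 212 ± 32.3 (SD, n = 5), 157 ± 5.57 (SD, n = 5), 174 ± 16.3 (SD, n = 4) and 154 ± 18.3 (SD, n = 4), had the same extremes over a narrower range.

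Other complement genes, 28 in a separate list, were examined for context. Of 19 tested without fenofibrate, 2 were higher and 0 lower past the threshold, and of 18 tested with it, 1 was lower and 0 higher, by limma, beside 2.7% and 4.45% of all tested genes in either direction. At an unadjusted p under 0.05, 6 passed in each comparison, beside 18.4% and 21.2% of all tested genes. With no filter on low values 0 passed in either. Apcs, which encodes serum amyloid P, a pentraxin that binds C1q, was higher in B2D, at 79.9 ± 8.21 FPKM (SD, n = 5) against 52.1 ± 11 (SD, n = 5) in Ctrl, with a log2 fold change of 0.63 (SE 0.143, limma adjusted p = 0.0397). It passed without Ctrl 2 and lost its call in the other 9 fits, with adjusted p-values up to 0.10 without Ctrl 1. Cd93, a receptor of endothelial cells, was also higher, at 1.67 ± 0.178 FPKM (SD, n = 5) against 0.786 ± 0.317 (SD, n = 5), with a log2 fold change of 0.59 (SE 0.121, limma adjusted p = 0.0265). Its call was lost without Ctrl 1 (0.0615), Ctrl 2 (0.0785), Ctrl 4 (0.0753), B2D 3 (0.0504) or B2D 4 (0.0539). With fenofibrate Susd4, which encodes a membrane inhibitor of complement, was lower in B2D+FF, at 4.89 ± 1.34 FPKM (SD, n = 4) against 11.4 ± 2.18 (SD, n = 4) in Ctrl+FF, with a log2 fold change of -1.09 (SE 0.192, limma adjusted p = 0.0171), and the call was lost without Ctrl+FF 1 (0.0587) or Ctrl+FF 3 (0.0525). Cfhr2, Crp and Cpb2, the 3 with the highest FPKM without fenofibrate, had log2 fold changes of -0.20, -0.016 and -0.30 there, and none passed.

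Markers of other cells were read in the same fits. Without fenofibrate, 10 of 10 hepatocyte, 8 of 9 stellate, 8 of 8 endothelial and 3 of 8 neutrophil and monocyte markers were tested. Only 1 of 9 lymphocyte, 3 of 5 cholangiocyte and 2 of 5 adipocyte markers were. None of these passed by limma, and markers under the filter on low values were not tested. At an unadjusted p under 0.05, 2 hepatocyte, 1 stellate, 1 endothelial, and 2 neutrophil and monocyte markers passed, and 0 of the others tested. With fenofibrate 6 of 10 hepatocyte, 1 of 8 stellate, 1 of 8 endothelial, 2 of 4 neutrophil and monocyte, and 1 of 2 cholangiocyte markers did, where 18.4% and 21.2% of all genes passed at that level in the 2 comparisons. There 0 of 9 lymphocyte markers were tested, and 0 of the 1 adipocyte marker tested passed. Alas2, a red cell marker, was lower in both comparisons, with log2 fold changes of -1.36 (limma adjusted p = 0.0114) and -1.37 (limma adjusted p = 9.18e-04), and it passed whichever single library was omitted. Its diets overlapped without fenofibrate. The globin genes of that list, Hba-a1, Hba-a2, Hbb-bs and Hbb-bt, did not pass and overlapped between diets in both comparisons. Their log2 fold changes were -0.50 to -0.18 without fenofibrate (limma adjusted p = 0.539 to 0.806) and -0.72 to -0.23 with it (0.244 to 0.649). With fenofibrate Tat (hepatocytes), Lyve1 (sinusoidal endothelium) and Retnlg (neutrophils) were higher, with log2 fold changes of 1.35, 0.77 and 0.97 (limma adjusted p = 0.0188, 0.0294 and 0.0280). Other markers of these lists differed in direction, since 7 of 8 endothelial markers were below 0 and the hepatocyte genes Alb and Ttr had log2 fold changes of -0.35 and -0.34 with no overlap between diets (limma adjusted p = 0.114 and 0.104). Retnlg had a mean of 0.301 FPKM with Ctrl+FF against 1.63 with B2D+FF, and passed the filter on low values through B2D+FF. Tat lost its call without Ctrl+FF 1 (0.0577), Lyve1 without Ctrl+FF 1, 2 or 3 or B2D+FF 4 (up to 0.0951), and Retnlg without Ctrl+FF 1, 2 or 3 or B2D+FF 1 or 4 (up to 0.0872). The part of these cell types in the complement values was not tested.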

How the data were processed

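The authors prepared mRNA libraries, sequenced 150-base pairs, aligned them to mm10 with STAR and counted reads with featureCounts. They deposited FPKM values per gene in 2 tables, one without and one with fenofibrate. Whether the 2 tables were normalized separately is not stated. All 18 columns were assigned to a group from the labels. Each table was fitted alone with limma 3.58.1 (R 4.3.3, limma-trend) on log2(FPKM + 1), keeping genes that averaged 0.5 FPKM or more. Benjamini-Hochberg adjustment ran over all genes kept, with a threshold of 0.05. The difference between diet effects was fitted over all 18 libraries. FPKM values were whole multiples of the value of 1 read (tolerance 0.05 reads) for 100% of values, which gave reads for limma voom.

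The genes, the lists of other cell types and complement genes, and the tests were chosen with earlier results of these data known, and the pairs of genes for ratios after the values were seen. All 35 genes were described, with full values for those past the threshold, those whose diets did not overlap and the most abundant gene of each role. The steps were tested on simulated data in which 200 genes carried a shift of 1 on the log2 scale. In the B2D comparison 84.7% of those tested were recovered among 11470 genes, in the FF comparison 76.9% among 11773, and in the difference 67.9% among 11802. In the same order the median estimates of the shift were 0.8, 0.727 and 0.75, and there were 6, 5 and 8 false calls. Smaller shifts, such as those of C1qa and Mbl1, were not simulated.

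Promoter sequences came from RefSeq (GRCm38.p6), trimmed where they ran into the deposited gene model. Gene positions are those of the deposited tables, and 34 of the 35 were the same in GENCODE M21. Shared windows are stretches of 150 bases of a gene's longest transcript that occur in a transcript of another gene.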

Additional observations from a re-analysis of the deposited data

Results flagged for a closer look

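In 139 groups of 4 or 5 mice, the highest or lowest FPKM was compared with its neighbour by Dixon's criterion, which chance meets in about 1 of 20 groups (6.95 here), and 6 values met it. Cfd was at 28.5 FPKM in B2D 2 (449 reads), where the next B2D mouse was at 0.279. In the same mouse Cfp was at 10.2 FPKM, with the next at 7.76. Colec11 was at 9.76 FPKM in Ctrl+FF 4, below the next value of 12.5. The other 3 rest on few reads: C1rb at 0.0894 FPKM in B2D 1 (4 reads, next 0.0235), C1s2 at 0.0220 in B2D 2 (1 read, next 0) and C1s2 at 0.0441 in B2D+FF 1 (2 reads, next 0).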

How the results depend on the processing

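No paired analysis was possible because each mouse has its own number in the labels and none is shared between groups. In B2D against Ctrl, the 6 lower genes became 1 with no filter on low values and 16 changed genes at an unadjusted p, and other settings gave 4 to 9. Leaving out a library gave 1 to 6, with 1 without Ctrl 2 or Ctrl 4 and 3 without B2D 2 or B2D 4. In B2D+FF against Ctrl+FF, the 9 became 5 with no filter and 14 at an unadjusted p, other settings gave 9 or 10, and leaving out a library gave 5 (without Ctrl+FF 1) to 10. For the difference, the 0 became 1 under array weights, and leaving out a library gave 0 or 1, the latter without Ctrl 3 or B2D 1. Its median of -0.087 turned to 0.033 under array weights and to 0.019 without B2D 3, in a range of -0.14 to 0.019 over the libraries left out. Removing the filter also changed how many genes were tested; elsewhere the cause was not tested.

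Over all genes, B2D against Ctrl called 313 genes, against 67 with no filter, 2124 at an unadjusted p and 731 when all groups shared a fit, with a lower share of 71.6% against 60.7% in that last fit. Leaving out a library gave 98 to 332. B2D+FF against Ctrl+FF called 529, against 272, 2519 and, with array weights, 885, and 175 to 596 with a library left out. Upper-quartile scaling moved its lower share from 49.7% to 62.1%. The difference called 27, against 16 with a pseudocount of 0.1, 12 by voom, 136 with array weights and 66 without B2D 1, and upper-quartile scaling moved its lower share from 44.4% to 58.1%. Depth limits C1rb and C1s2, at no more than 5 and 2 reads per library, and C5ar1, at 6 to 33.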
